A study of Mus musculus with 8 samples.

Results

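Cell cycle and DNA replication genes were followed across 4 populations of dendritic cells sorted from mouse thymus. The set comprised 46 genes chosen by name as known parts of the cell division machinery. They were chosen with earlier results of these data known, so their counts are no independent check. Each gene was found on the array through the accession that its probes carry. All 46 had at least 1 probe, 60 probes in all, among 20145 named genes on the array. A total of 43 members were tested, because at least 1 population had their probe well above background on its 2 arrays, and 40 of these were that bright on all 8 arrays. The labels record no knockout, transgene, treatment or time point, and they name neither strain nor age nor the surface markers of the maturity gate.

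The study profiled total RNA from thymic dendritic cells sorted on Sirpa, an inhibitory receptor by which the major conventional subsets are told apart, and on maturation status. The 4 groups were Sirpa-positive immature, Sirpa-positive mature, Sirpa-negative immature and Sirpa-negative mature cells, with 2 arrays each. The series title places the work in a study of CD40 in dendritic cell maturation and regulatory T cell development. Since the labels leave unsaid if both arrays of a group stem from different mice or sorts, the p-values below measure only the spread between these arrays, which may be technical.

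A dividing cell passes from growth into DNA synthesis and then into mitosis. D-type and E-type cyclins with their kinases release E2F factors, which switch on genes for replication origins, the replicative helicase and nucleotide supply, while cyclin-dependent kinase (CDK) inhibitors hold this step back. A later wave of genes builds the spindle, and the anaphase-promoting complex (APC/C) then destroys mitotic cyclins. Conventional dendritic cells arise from dividing precursors, and dendritic cells that mature are generally held to leave the cell cycle.

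To show what the members carry at their start sites, RefSeq promoter windows of the GRCm38.p6 build were searched for motifs known from cell cycle promoters. Each window runs from 250 bases before the start site to 50 bases after it, and 38 of the 46 members had one, in 43 windows. The mitotic element CHR was searched as TTTGAA or TTTAAA, the CCAAT box as CCAAT, and the E2F site as TTTGGCG and its spellings TTTGCCG, next TTTCGCG, and last TTTCCCG, each on both strands. The following 5 stretches, the 250 bases before the start site, stand for genes described below: a mitotic activator (Cdc20), a chromosome enzyme (Top2a), the mitotic kinase (Cdk1), a helicase subunit (Mcm6) and a CDK inhibitor (Cdkn1a). They are written 5′ to 3′ along the gene's own strand, with motif letters in capitals.
Cdc20, chr4:118437344-118437593, minus strand: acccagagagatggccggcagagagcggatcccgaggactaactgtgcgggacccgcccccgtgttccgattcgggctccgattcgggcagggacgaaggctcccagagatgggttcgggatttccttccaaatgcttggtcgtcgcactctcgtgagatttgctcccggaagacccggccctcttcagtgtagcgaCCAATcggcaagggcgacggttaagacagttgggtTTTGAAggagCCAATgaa
Top2a, chr11:99024190-99024439, minus strand: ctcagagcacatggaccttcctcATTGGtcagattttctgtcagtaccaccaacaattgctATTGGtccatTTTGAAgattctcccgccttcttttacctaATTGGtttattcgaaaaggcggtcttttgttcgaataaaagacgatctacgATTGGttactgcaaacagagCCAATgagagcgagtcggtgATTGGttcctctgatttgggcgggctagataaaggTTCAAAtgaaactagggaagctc
Cdk1, chr10:69352913-69353162, minus strand: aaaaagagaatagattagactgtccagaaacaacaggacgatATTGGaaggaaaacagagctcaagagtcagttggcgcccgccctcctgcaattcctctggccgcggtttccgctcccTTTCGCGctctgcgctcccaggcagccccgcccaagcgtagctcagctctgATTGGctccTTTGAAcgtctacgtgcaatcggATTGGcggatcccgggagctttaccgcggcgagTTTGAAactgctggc
Mcm6, chr1:128359706-128359955, minus strand: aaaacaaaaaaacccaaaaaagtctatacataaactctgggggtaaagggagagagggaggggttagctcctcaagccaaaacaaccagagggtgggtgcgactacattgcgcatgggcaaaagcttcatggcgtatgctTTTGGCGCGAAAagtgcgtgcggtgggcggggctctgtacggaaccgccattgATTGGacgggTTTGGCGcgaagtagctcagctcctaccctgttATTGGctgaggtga
Cdkn1a, chr17:29093519-29093768, plus strand: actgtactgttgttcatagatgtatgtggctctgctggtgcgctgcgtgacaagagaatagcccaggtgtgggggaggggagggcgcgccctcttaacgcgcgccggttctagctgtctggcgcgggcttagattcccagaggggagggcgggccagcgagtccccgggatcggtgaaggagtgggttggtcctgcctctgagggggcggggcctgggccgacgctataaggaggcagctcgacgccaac

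The Cdc20 stretch held 1 CHR word, 18 bases before the start, and 2 CCAAT words at 53 and 8 bases. Top2a held 2 CHR and 6 CCAAT words. Cdk1 held 2 CHR, 3 CCAAT and 1 E2F word, and Mcm6 held 2 CCAAT and 3 E2F words, of which the pair at 110 and 105 bases overlap. None of the letters searched for was in the Cdkn1a stretch.

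The CHR word was present in 14 of 15 windows of mitosis members (93.3%), in 7 of 17 windows of replication and E2F members (41.2%) and in 27.6% of all 32851 RefSeq windows of the same length. The CCAAT box was in 14 of 15 mitosis windows (93.3%), 13 of 17 replication and E2F windows (76.5%) and 37.4% of all windows. The E2F word was in 2 of 15 (13.3%), 6 of 17 (35.3%) and 6.70% respectively. These shares describe letters only and were not tested, because the members were chosen for their function.

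The arrays matched their labels on most marker genes, at an adjusted p under 0.05 in limma's moderated test. Of 4 tested markers of Sirpa-negative (type 1) cells, 4 were lower in Sirpa-positive cells when immature and 3 when mature. Of 5 markers of Sirpa-positive (type 2) cells, 4 and 3 were higher. The summed type 2 signal did not separate the subsets, at 43205 to 68132% of the array's 75th percentile in Sirpa-positive and 44002 to 52329% in Sirpa-negative cells. Sirpa itself measured 3.96 to 4.68 on the log2 scale used below in Sirpa-positive and -2.24 to -0.52 in Sirpa-negative cells. All 6 general dendritic cell markers stood well above background on every array. The summed signal of the maturation markers ran from 2169 to 3044% of the array's 75th percentile on immature arrays and from 24825 to 38429% on mature arrays. Of the markers of other cells, 21 to 24 of the 24 thymocyte and T cell genes were well above background on each array. Macrophage genes were abundant in Sirpa-positive cells. Both lists are given again beside the results they move with. The 8 arrays lay on 1 slide in 2 rows, each row holding 1 array of every group. The share of spots well above background was 61.9 to 65.5% in the first row and 52.9 to 57.9% in the second. The number of arrays limits the precision of every value below.

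Mature cells of both subsets had lower levels of most replication and mitosis genes than immature cells. In Sirpa-positive cells 20 of the 46 members fell and 2 rose, against 6.89% of all 24148 genes or accessions called in either direction (2.53% lower, 4.36% higher in mature cells). In Sirpa-negative cells 26 fell and 2 rose, against 16.4% called in either direction (7.25% lower, 9.2% higher). With normexp background correction and quantile normalization, calls over all genes in Sirpa-positive cells split nearly evenly, 1204 lower and 1245 higher against 611 and 1054 here. The 2 risers were the same in both subsets, the D-type cyclin Ccnd2 and the CDK inhibitor Cdkn1a. A called gene here is one with an adjusted p under 0.05 in limma's moderated test with Benjamini-Hochberg adjustment over all genes.

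The median difference of the 43 tested members, mature minus immature, was -1.08 on the log2 scale in Sirpa-positive cells and -1.16 in Sirpa-negative cells. Over all genes tested these medians were 0.03 and -0.01. Every mature array lay below every immature array for 37 members in each subset, where 25.5% of all genes did so in Sirpa-positive and 30.2% in Sirpa-negative cells. With both subsets in 1 contrast, 36 members fell and 2 rose against 21.8% of all genes called (10.8% lower, 11% higher). The 5 tested members that did not pass were Ccnd1, Ccnd3, Cdkn1b, Kif11 and Tyms. The falls included Aurkb and Cdc25c, which entered the test through immature groups in which they were high. Cdc25c was also among the falls in Sirpa-positive cells. With only probes well above background on all 8 arrays, which leaves both genes out, 35 of 40 members fell and 2 rose. Under that filter 2738 of all 18990 genes fell and 2215 rose. Cdk1 passed the pooled contrast narrowly, at -0.60 (adjusted p = 0.048), the mean of -1.19 in Sirpa-positive and -0.01 in Sirpa-negative cells. Its other 2 probes did not pass there (adjusted p = 0.415 and 0.196). In a bulk sort, fewer cycling cells and less RNA of the members per cell cannot be told apart.

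The counts within 1 subset depended on single arrays, since each group has 2. In Sirpa-positive cells the 22 calls became 2 without immature array 5, 3 without immature array 3, 3 without mature array 6 and 4 without mature array 1, and 14 without either Sirpa-negative immature array (4 or 7), which enters through the shared spread. In Sirpa-negative cells the 28 calls became 9 without mature array 2, 10 without immature array 4 and 14 without immature array 7. With slide row as a block they became 8 and 20. Within rows, 37 members were lower in mature Sirpa-positive cells in both rows and 38 in Sirpa-negative cells. The pooled contrast moved less, to between 33 and 38 calls when any 1 array was left out and 37 with the row block.

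**Figure D1:**
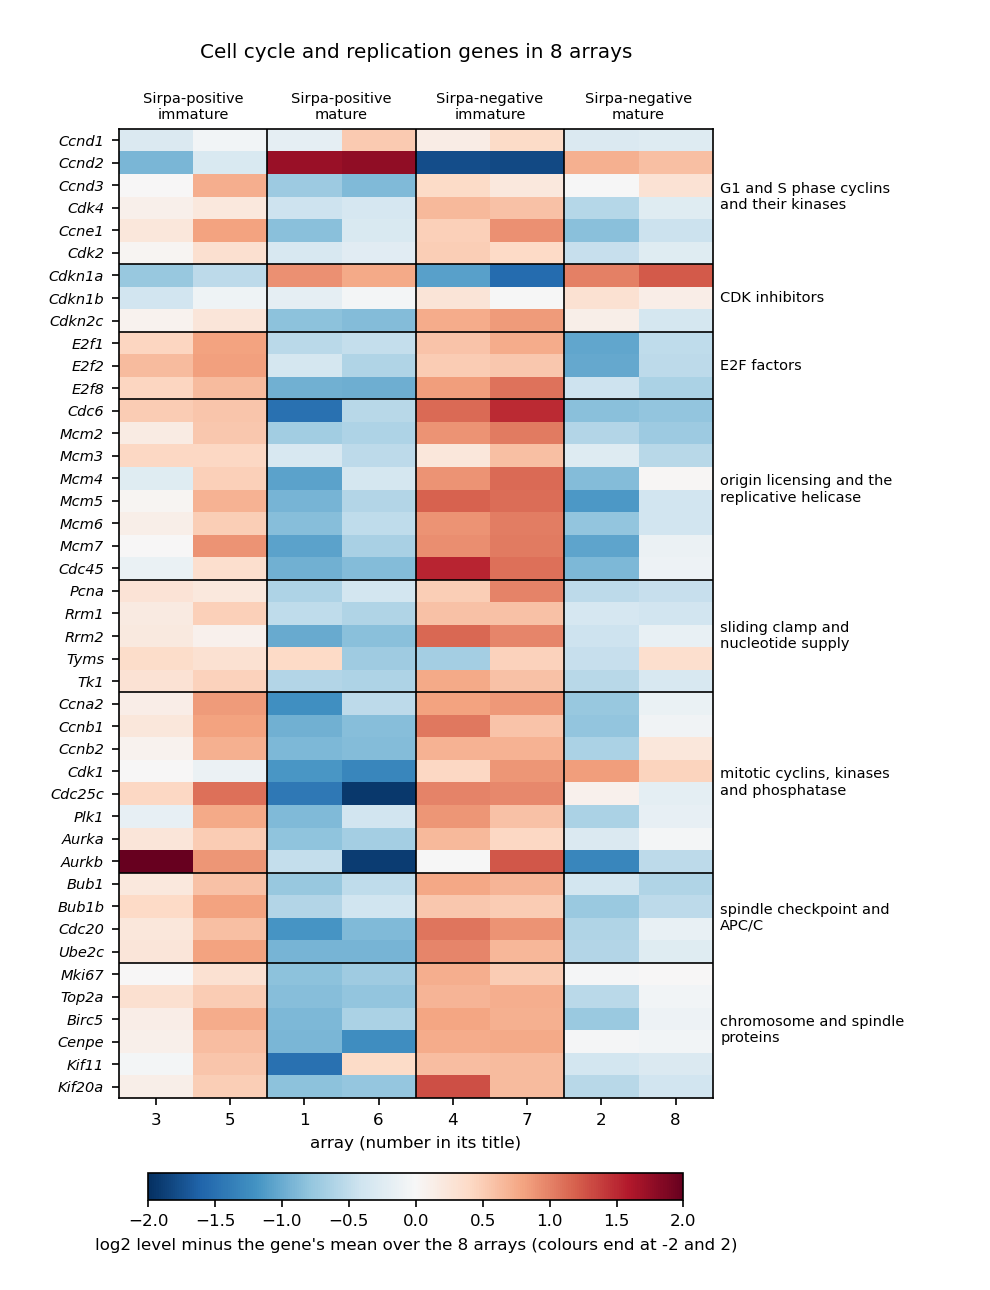
Log2 level of each of the 43 tested members on each of the 8 arrays, minus the gene's mean over the arrays, with members ordered by role (rows) and arrays by group (columns, numbered as in their titles). Most rows are red in immature and blue in mature columns, and the rows of Ccnd2 and Cdkn1a run the other way.

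Among the CDK inhibitors, Cdkn1a, which encodes p21, rose in both subsets, Cdkn2c fell and Cdkn1b was not called. Cdkn1a, measured as log2 signal with 0 at each array's 75th percentile, stood at 3.95 and 4.18 on the Sirpa-positive immature arrays and 5.62 and 5.46 on the mature arrays. It stood at 3.62 and 3.17 on the Sirpa-negative immature arrays and 5.71 and 5.93 on the mature arrays. All mature arrays were above all immature arrays. The rise was 1.48 ± 0.233 (log2 difference ± SE, 2 arrays per group, adjusted p = 0.0135) in Sirpa-positive cells and 2.43 ± 0.233 (adjusted p = 0.00114) in Sirpa-negative cells. A second, dimmer Cdkn1a probe gave 0.41 (adjusted p = 0.479) and 0.999 (adjusted p = 0.0466).

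Cdkn2c encodes p18, an inhibitor of the cyclin D kinases. Its level was 0.67 and 0.86 in Sirpa-positive immature, -0.21 and -0.26 in Sirpa-positive mature, 1.34 and 1.46 in Sirpa-negative immature and 0.73 and 0.26 in Sirpa-negative mature cells. The groups did not overlap within a subset, and the difference was -0.997 ± 0.225 (adjusted p = 0.044) and -0.91 ± 0.225 (adjusted p = 0.0341). Cdkn1b, which encodes p27, was 2.78 and 3.07 in Sirpa-positive immature and 2.97 and 3.12 in mature cells, and 3.42 and 3.16, then 3.47 and 3.30 in Sirpa-negative cells. It overlapped between the stages in both subsets. Its differences of 0.12 ± 0.215 (adjusted p = 0.813) and 0.09 ± 0.215 (adjusted p = 0.82) did not pass, and its sign turned in Sirpa-negative cells when arrays were centred on their median.

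The G1 cyclins and kinases did not move as 1 group: 1 of 8 rose and none fell in Sirpa-positive cells, and 1 rose and 3 fell in Sirpa-negative cells. Ccnd2, a D-type cyclin that partners Cdk4 and Cdk6, stood at 2.82 and 3.43 in Sirpa-positive immature and 5.45 and 5.51 in Sirpa-positive mature cells. In Sirpa-negative cells it stood at 1.96 and 1.93 when immature and 4.44 and 4.33 when mature. It was the member with the largest rise in Sirpa-positive cells, 2.35 ± 0.242 (adjusted p = 0.00318), and rose by 2.44 ± 0.242 (adjusted p = 0.00128) in Sirpa-negative cells. It stayed called in both subsets under all 20 alternatives tried.

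The other D-type cyclins gave no call. Ccnd1 stood at 5.57 and 5.80 in Sirpa-positive immature and 5.68 and 6.38 in Sirpa-positive mature cells, against 6.01 and 6.23, then 5.57 and 5.60 in Sirpa-negative cells. Its Sirpa-positive groups overlapped, and both Sirpa-negative mature arrays lay below both immature arrays. Neither change passed, with differences of 0.34 ± 0.271 (adjusted p = 0.571) in Sirpa-positive and -0.54 ± 0.271 (adjusted p = 0.241) in Sirpa-negative cells. Ccnd3 stood at 2.20 and 2.92 in Sirpa-positive immature and 1.47 and 1.32 in Sirpa-positive mature cells, against 2.59 and 2.41, then 2.19 and 2.49 in Sirpa-negative cells. Its Sirpa-positive groups did not overlap and its Sirpa-negative groups did, with differences of -1.17 ± 0.278 (adjusted p = 0.0534) and -0.16 ± 0.278 (adjusted p = 0.762). Its second probe passed in neither subset, and over both subsets in 1 contrast it did, at -0.58 (adjusted p = 0.0418).

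Cdk4, the kinase partner of the D-type cyclins, was 3.004 and 3.12 in Sirpa-positive immature and 2.49 and 2.56 in mature cells, and 3.55 and 3.49, then 2.33 and 2.67 in Sirpa-negative cells. Mature arrays were lower in both subsets, at -0.53 ± 0.202 (adjusted p = 0.193) in Sirpa-positive cells, which did not pass, and at -1.02 ± 0.202 (adjusted p = 0.0159) in Sirpa-negative cells. Ccne1, the cyclin E that drives entry into DNA synthesis, was 0.80 and 1.38 in Sirpa-positive immature and -0.26 and 0.28 in Sirpa-positive mature cells. In Sirpa-negative cells it was 1.06 and 1.49 when immature and -0.26 and 0.14 when mature. The groups did not overlap in either subset, and the difference was -1.08 ± 0.315 (adjusted p = 0.0993) and -1.33 ± 0.315 (adjusted p = 0.0296). Its second probe passed in both subsets, at -1.52 (adjusted p = 0.00956) and -1.22 (adjusted p = 0.0106). Cdk2, the kinase of cyclin E, differed by -0.46 (adjusted p = 0.265) and -0.80 (adjusted p = 0.0375). Ccne2 stood well above background on 0 arrays and Cdk6 on 2, 1 of each immature group, so neither was tested.

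All 3 E2F factors fell in both subsets. E2f8, a repressor of the family that is itself switched on in S phase, was -0.03 and 0.18 in Sirpa-positive immature and -1.41 and -1.42 in Sirpa-positive mature cells, and 0.39 and 0.63, then -0.87 and -1.08 in Sirpa-negative cells. No group overlapped, and the differences were nearly equal, -1.49 ± 0.204 (adjusted p = 0.00822) and -1.48 ± 0.204 (adjusted p = 0.00423). E2f1, an activator of S phase genes, was 1.17 and 1.55 in Sirpa-positive immature and 0.21 and 0.27 in mature cells, and 1.32 and 1.49, then -0.30 and 0.24 in Sirpa-negative cells. E2f2, a close relative of E2f1, was 3.54 and 3.73, then 2.55 and 2.30 in Sirpa-positive cells, and 3.41 and 3.45, then 1.88 and 2.38 in Sirpa-negative cells. For both, every mature array was below every immature array. E2f1 differed by -1.12 ± 0.253 (adjusted p = 0.0446) and -1.43 ± 0.253 (adjusted p = 0.0108), and E2f2 by -1.21 ± 0.237 (adjusted p = 0.028) and -1.30 ± 0.237 (adjusted p = 0.012).

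Genes of origin licensing and the replicative helicase were lower in mature cells throughout: all 8 in both subsets, of which 2 fell in Sirpa-positive and 7 in Sirpa-negative cells. Their median difference was -1.003 in Sirpa-positive and -1.60 in Sirpa-negative cells. Cdc6, which loads the helicase onto origins, stood at -0.59 and -0.54 in Sirpa-positive immature and -2.59 and -1.65 in Sirpa-positive mature cells. In Sirpa-negative cells it stood at 0.03 and 0.40 when immature and -1.93 and -1.88 when mature. The mature arrays were below the immature arrays in both subsets, and the Sirpa-positive mature pair lay furthest apart. Cdc6 differed by -1.55 ± 0.32 (adjusted p = 0.0333) and -2.12 ± 0.32 (adjusted p = 0.00589); its second probe passed in neither subset.

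Mcm2, a subunit of the helicase ring, was 1.74 and 2.12 in Sirpa-positive immature and 0.88 and 0.96 in Sirpa-positive mature cells. In Sirpa-negative cells it was 2.48 and 2.62 when immature and 1.001 and 0.85 when mature. The mature levels of the subsets interleaved, and the immature levels lay higher in Sirpa-negative cells, a gap that did not pass (adjusted p = 0.121). Its difference was -1.003 ± 0.212 (adjusted p = 0.036) in Sirpa-positive and -1.62 ± 0.212 (adjusted p = 0.00352) in Sirpa-negative cells.

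Mcm6, another ring subunit whose promoter is printed above, was 3.72 and 4.09 in Sirpa-positive immature and 2.74 and 3.09 in mature cells, and 4.50 and 4.62, then 2.81 and 3.20 in Sirpa-negative cells. Its groups did not overlap within a subset. It fell, at -1.55 ± 0.248 (adjusted p = 0.0074), in Sirpa-negative cells and did not pass in Sirpa-positive cells, at -0.99 ± 0.248 (adjusted p = 0.0622). The ring subunits Mcm3, Mcm4, Mcm5 and Mcm7 and the helicase cofactor Cdc45 ranged from -0.83 to -1.31 in Sirpa-positive cells, with no call. They ranged from -0.83 to -1.92 in Sirpa-negative cells, where all but Mcm4 (-1.43, adjusted p = 0.0505) fell.

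Of the sliding clamp and nucleotide supply genes, 3 of 5 fell in Sirpa-positive and 4 of 5 in Sirpa-negative cells. Rrm2, the regulated subunit of ribonucleotide reductase, which makes deoxynucleotides, was 1.89 and 1.78 in Sirpa-positive immature and 0.68 and 0.86 in Sirpa-positive mature cells. In Sirpa-negative cells it was 2.84 and 2.67 when immature and 1.28 and 1.54 when mature. The 4 groups did not overlap anywhere, and the differences were -1.06 ± 0.204 (adjusted p = 0.0266) and -1.35 ± 0.204 (adjusted p = 0.00608). Its partner Rrm1 fell too, at -0.87 (adjusted p = 0.0442) and -0.95 (adjusted p = 0.0187).

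Tk1, the thymidine kinase of S phase, was 1.81 and 1.98 in Sirpa-positive immature and 0.93 and 0.89 in mature cells, and 2.27 and 2.10, then 0.96 and 1.19 in Sirpa-negative cells. It fell in both subsets, at -0.98 ± 0.199 (adjusted p = 0.0306) and -1.11 ± 0.199 (adjusted p = 0.0113). Pcna, the clamp that holds polymerases on DNA, was 3.44 and 3.37, then 2.54 and 2.80 in Sirpa-positive cells, and 3.65 and 4.16, then 2.64 and 2.71 in Sirpa-negative cells. Both genes were lower on every mature than every immature array. Pcna fell in Sirpa-negative cells, at -1.24 ± 0.235 (adjusted p = 0.0137), and did not pass in Sirpa-positive cells, at -0.73 ± 0.235 (adjusted p = 0.126). Tyms, thymidylate synthase, overlapped between groups in both subsets, at -0.49 ± 0.502 (adjusted p = 0.675) and 0.05 ± 0.502 (adjusted p = 0.966).

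**Figure D2:**
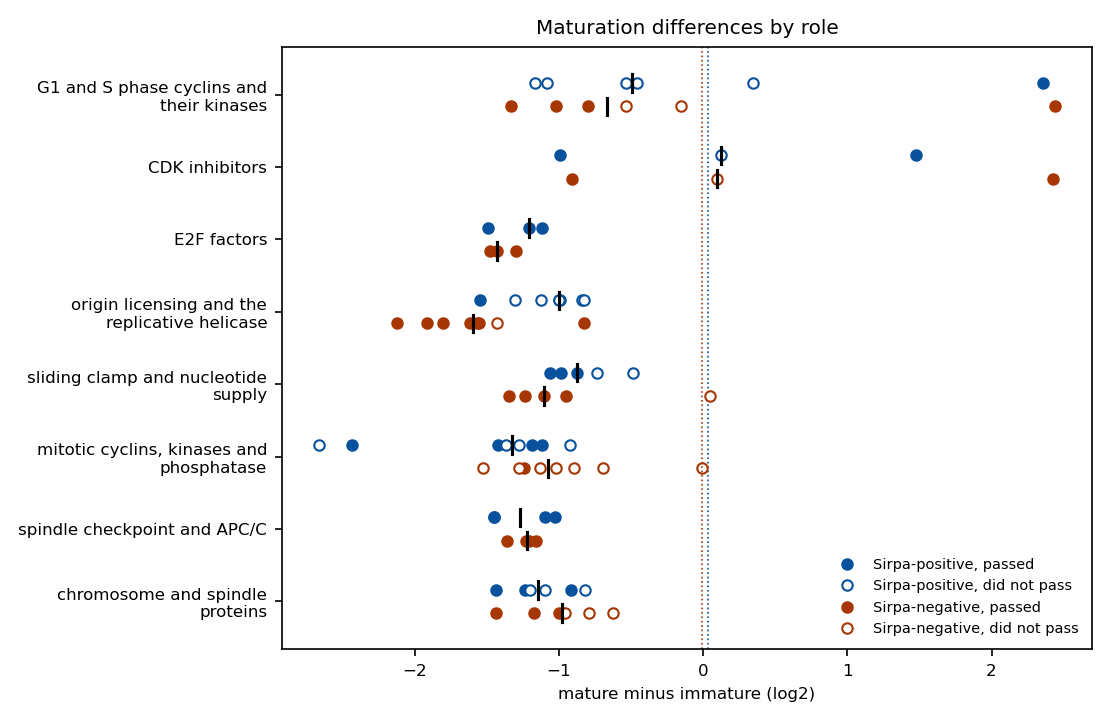
Log2 difference, mature minus immature, of the tested members by role in Sirpa-positive (blue) and Sirpa-negative (brown) cells, with filled points for adjusted p under 0.05, black ticks for the role's median and dotted lines for the median of all genes tested. The replication roles lie further left in Sirpa-negative cells, and the mitotic cyclins and kinases lie further left in Sirpa-positive cells.

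Mitosis genes were also lower in mature cells: all 18 tested members in both subsets, of which 11 fell in Sirpa-positive and 8 in Sirpa-negative cells. Among the mitotic cyclins, kinases and the phosphatase, 4 of 8 fell in Sirpa-positive cells (Cdc25c, Aurka, Cdk1 and Ccnb1) and 1 of 8 in Sirpa-negative cells (Ccnb1). Aurka, the kinase of spindle poles, was 1.56 and 1.83 in Sirpa-positive immature and 0.51 and 0.64 in mature cells, and 1.97 and 1.74, then 1.03 and 1.28 in Sirpa-negative cells. Mature arrays were below immature arrays in both subsets. The difference was -1.12 ± 0.214 (adjusted p = 0.0261) in Sirpa-positive cells and, not passing, -0.70 ± 0.214 (adjusted p = 0.068) in Sirpa-negative cells.

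Cdk1, the kinase that drives entry into mitosis, fell in Sirpa-positive cells and gave no call in Sirpa-negative cells. Its brightest probe was 1.78 and 1.64 in Sirpa-positive immature and 0.60 and 0.45 in mature cells, and 2.18 and 2.64, then 2.60 and 2.20 in Sirpa-negative cells. The Sirpa-positive groups did not overlap and the Sirpa-negative groups did, with both mature arrays between the 2 immature arrays. The difference was -1.19 ± 0.246 (adjusted p = 0.034) in Sirpa-positive and -0.01 ± 0.246 (adjusted p = 0.986) in Sirpa-negative cells. The difference between these 2 values, 1.18 ± 0.348, did not pass (adjusted p = 0.38, the smallest of any member). The other 2 Cdk1 probes, which carry the same accession, gave -0.33 (adjusted p = 0.499) and -0.80 (adjusted p = 0.136) in Sirpa-positive and -0.10 (adjusted p = 0.826) and 0.03 (adjusted p = 0.964) in Sirpa-negative cells. The sign of the Sirpa-negative value thus differed between probes, and it also turned under quantile normalization and in the authors' deposited values.

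Cdc25c, the phosphatase that activates Cdk1, was near the background of the array. It was -2.98 and -2.29 in Sirpa-positive immature cells and not well above background on either Sirpa-positive mature array, which measured -4.81 and -5.32. In Sirpa-negative cells it was -2.40 and -2.44 when immature and -3.30 and -3.58 when mature, the last again not well above background. It was at least 2.46-fold lower in mature Sirpa-positive cells (adjusted p = 0.00564), a bound set against the lowest signal counted as above background. In Sirpa-negative cells the difference of -1.02 ± 0.297 did not pass (adjusted p = 0.0572). Aurkb, the kinase of the chromosomal passenger complex, was above background on 4 of 8 arrays. It was not called within either subset, at -2.67 (adjusted p = 0.0562) and -1.53 (adjusted p = 0.166). Over both subsets in 1 contrast it was called, at -2.10 ± 0.458 (adjusted p = 0.0167), a value that rests on levels at or near background. Cdc25c and Aurkb entered the test through a group in which they were high.

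The cyclin genes Ccnb1, Ccna2 and Ccnb2, whose proteins pair with Cdk1 or Cdk2 late in the cycle, differed by -1.42 (adjusted p = 0.0474), -1.37 (adjusted p = 0.0711) and -1.28 (adjusted p = 0.0714) in Sirpa-positive cells. In Sirpa-negative cells they differed by -1.24 (adjusted p = 0.0426), -1.28 (adjusted p = 0.0515) and -0.90 (adjusted p = 0.12). The other 2 Ccnb1 probes passed in Sirpa-negative cells, and in Sirpa-positive cells 1 passed, at -1.46 (adjusted p = 0.0349), and 1 did not, at -0.82 (adjusted p = 0.347). Plk1, a kinase of mitotic entry and exit, did not pass in either subset.

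The spindle checkpoint and APC/C genes were the only role besides the E2F factors in which every member fell in both subsets. Cdc20, the APC/C activator whose promoter is printed above, was 1.80 and 2.18 in Sirpa-positive immature and 0.39 and 0.69 in mature cells, and 2.64 and 2.48, then 0.98 and 1.42 in Sirpa-negative cells. Ube2c, the ubiquitin-conjugating enzyme of the complex, was 3.13 and 3.69, then 1.97 and 1.96 in Sirpa-positive cells, and 3.88 and 3.56, then 2.32 and 2.66 in Sirpa-negative cells. Bub1, a checkpoint kinase, was -0.42 and -0.05, then -1.39 and -1.14 in Sirpa-positive cells, and 0.15 and 0.05, then -1.0001 and -1.22 in Sirpa-negative cells. For all 3, each mature array was below each immature array. Cdc20 differed by -1.45 ± 0.253 (adjusted p = 0.0191) and -1.36 ± 0.253 (adjusted p = 0.0128). Ube2c differed by -1.45 ± 0.262 (adjusted p = 0.0216) and -1.23 ± 0.262 (adjusted p = 0.0205). Bub1 and its partner Bub1b differed by between -1.03 and -1.21, with adjusted p between 0.0126 and 0.0393.

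Of the chromosome and spindle proteins, 3 of 7 fell in each subset, and Top2a did in both. Top2a, which untangles DNA before chromosomes part, was 0.62 and 0.81 in Sirpa-positive immature and -0.54 and -0.49 in mature cells, and 0.99 and 1.03, then -0.24 and 0.26 in Sirpa-negative cells. Mki67, whose protein coats mitotic chromosomes and marks cycling cells, was 2.33 and 2.62, then 1.50 and 1.61 in Sirpa-positive cells, and 3.04 and 2.83, then 2.30 and 2.32 in Sirpa-negative cells. Both were lower on mature arrays without overlap. Top2a differed by -1.23 ± 0.227 (adjusted p = 0.0227) and -1.0005 ± 0.227 (adjusted p = 0.0256), and Mki67 by -0.92 ± 0.203 (adjusted p = 0.0412) and, not passing, -0.63 ± 0.203 (adjusted p = 0.081).

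Cenpe, the kinesin at kinetochores, was 0.07 and 0.59 in Sirpa-positive immature and -0.94 and -1.27 in mature cells, and 0.72 and 0.73, then -0.05 and -0.09 in Sirpa-negative cells. Kif20a, a kinesin of the spindle midzone, was -1.04 and -0.67, then -1.97 and -1.93 in Sirpa-positive cells, and 0.14 and -0.52, then -1.71 and -1.54 in Sirpa-negative cells. Neither overlapped between mature and immature arrays of a subset. Cenpe passed in Sirpa-positive cells, at -1.44 ± 0.241 (adjusted p = 0.0165), and not in Sirpa-negative cells, at -0.79 ± 0.241 (adjusted p = 0.0661). Kif20a passed in Sirpa-negative cells, at -1.44 ± 0.271 (adjusted p = 0.0133), and not in Sirpa-positive cells, at -1.10 ± 0.271 (adjusted p = 0.0591). Birc5, a passenger complex subunit, differed by -1.20 (adjusted p = 0.064) and -1.17 (adjusted p = 0.0397). Its other 2 probes passed in both subsets, at -1.25 (adjusted p = 0.0383) and -1.31 (adjusted p = 0.0395) in Sirpa-positive and -1.35 (adjusted p = 0.0164) and -1.09 (adjusted p = 0.0415) in Sirpa-negative cells. Kif11 did not pass in either subset, and Cenpf was above background on 0 arrays.

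**Figure D3:**
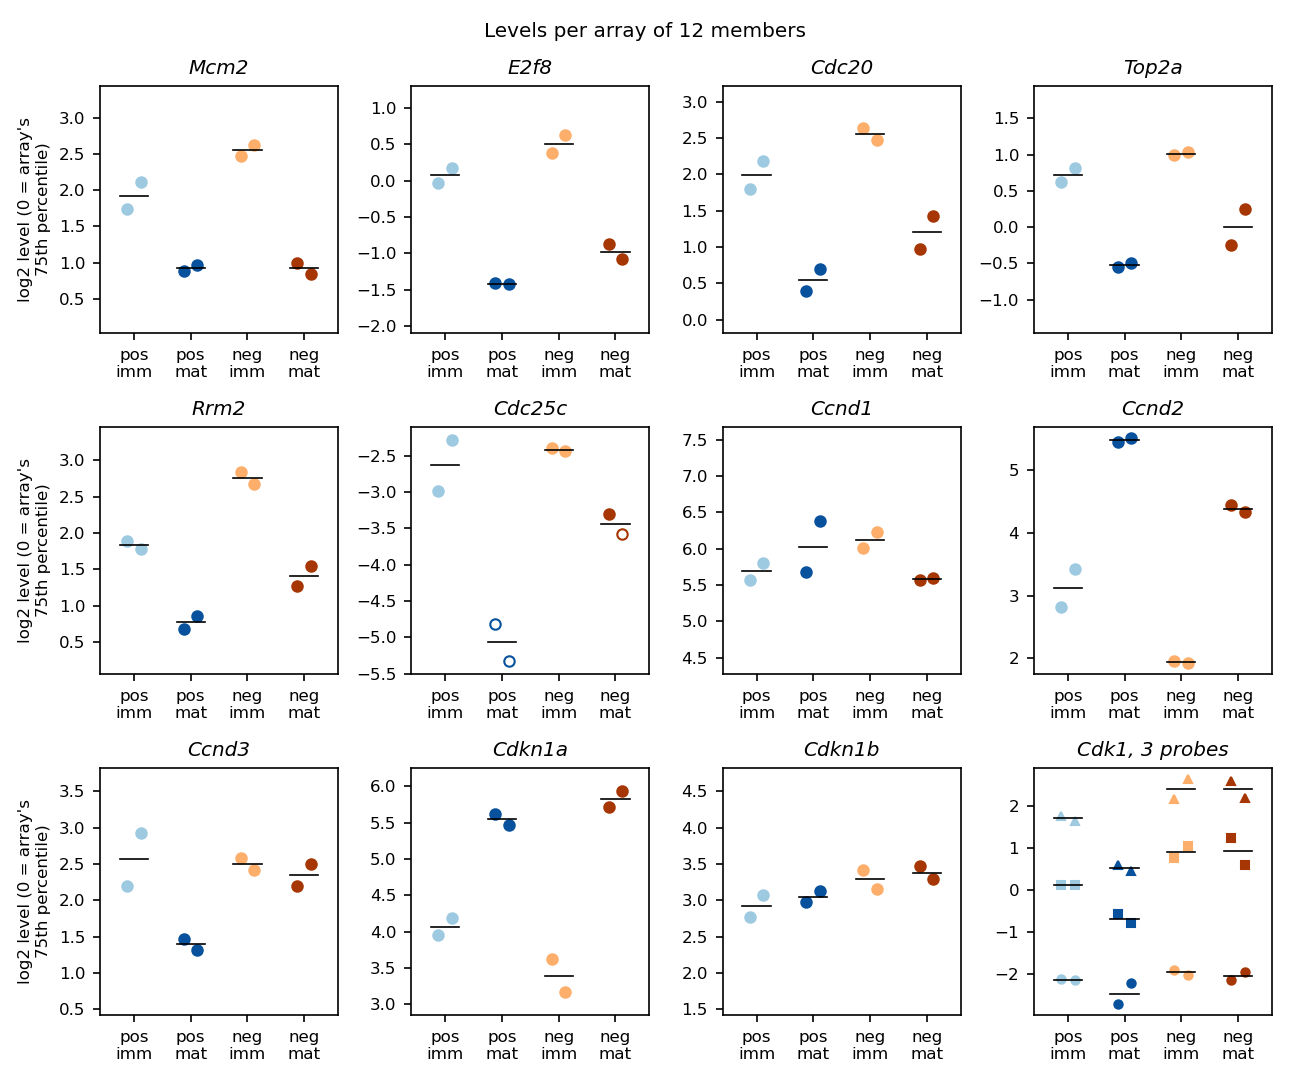
Log2 level on each array (0 is that array's 75th percentile) of 12 members in Sirpa-positive (blue) and Sirpa-negative (orange) cells, immature (light) and mature (dark), with a line at each group's mean, open points where the probe was not well above background, and all 3 probes of Cdk1 in the last panel. Ccnd2 and Cdkn1a are higher in mature cells, Cdkn1b overlaps between stages in both subsets and Ccnd1 in Sirpa-positive cells, and Cdk1 is lowest in Sirpa-positive mature cells.

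Whether maturation differed between the subsets was tested as a difference of the 2 maturation effects. No member passed, nor did any gene of the 24148 tested (0% called by limma, smallest adjusted p = 0.0701), while 1950 genes (8.08%) and 4 of 43 members had an unadjusted p under 0.05. The 4 members were Cdk1, Cdc25c, Cdkn1a and Ccnd3, each with a higher change in Sirpa-negative cells, of 1.18, 1.41, 0.95 and 1.01 (adjusted p = 0.38, 0.385, 0.489 and 0.55). The Cdc25c value rests on arrays on which it was not well above background. With normexp and quantile normalization 182 genes passed this test, and with the authors' deposited values 151. With trended, robust variances 185 passed, and with only probes well above background on all 8 arrays 101 of 18990. None of these genes was a member. As a description, the change was more negative in Sirpa-negative cells for 11 of 13 replication members (median -0.50) and less negative for 13 of 18 mitosis members (median 0.20). The median over all genes tested was -0.03. The direction over all 43 members depended on single arrays. Their median was -0.23 (all genes -0.05) without Sirpa-positive immature array 5 and 0.14 (all genes 0.0008) without Sirpa-positive immature array 3. With each gene's mean over the 8 arrays taken off, mitosis members had a median level of 0.17 on array 3 and 0.67 on array 5. The split by role was not counted again without these arrays.

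The subsets shared most of the falls by size: 38 members were lower in mature cells of both subsets, counting Cdk1 at -0.01 in Sirpa-negative cells. Of the members, 15 fell in both, 5 in Sirpa-positive cells only and 11 in Sirpa-negative cells only. These last 2 counts rest on the threshold and are not shown to differ between subsets. The 5 were Cenpe, Aurka, Cdc25c, Cdk1 and Mki67, all of mitosis, and the 11 were Mcm3, Mcm5, Mcm6, Mcm7, Cdc45 and Pcna of replication with Ccne1, Cdk2, Cdk4, Birc5 and Kif20a. Ccne1 and Birc5 had other probes that passed in both subsets, as given above. Across the 43 members the maturation differences of the subsets had a Pearson correlation of 0.80 and a Spearman correlation of 0.47, against a Pearson correlation of 0.67 over all 24148 genes. The points share slide, rows and scaling, and genes are not independent replicates.

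**Figure D4:**
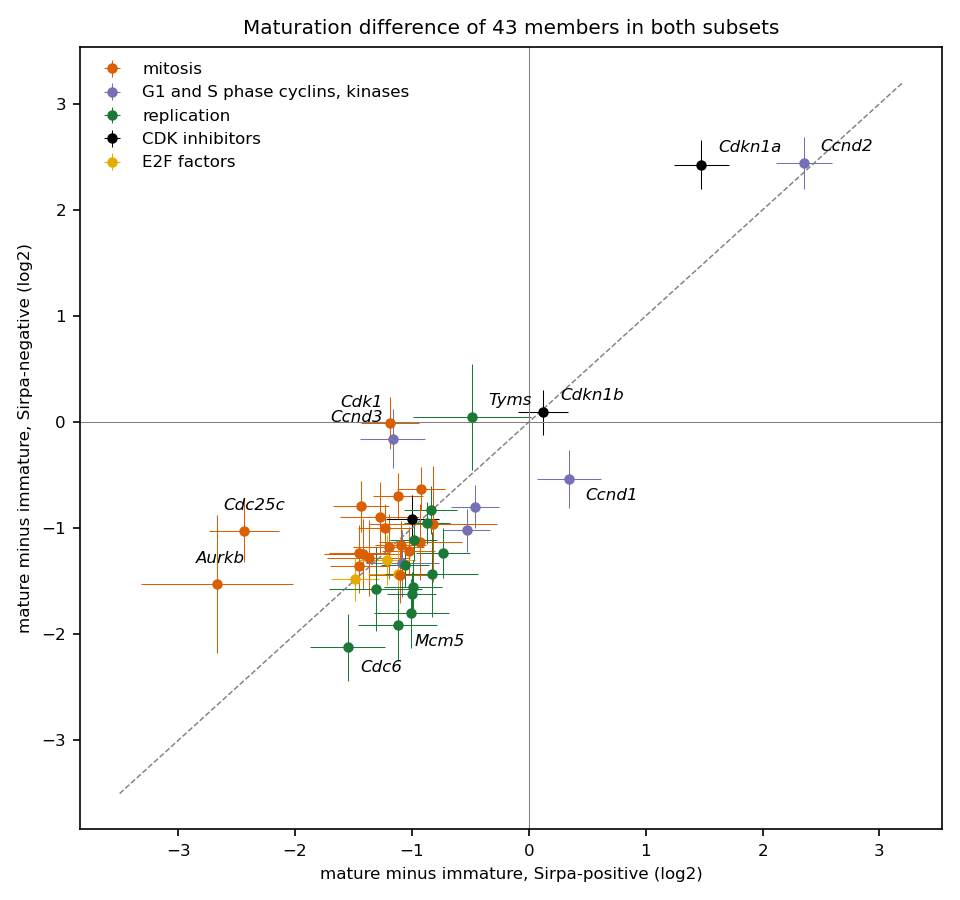
Log2 difference, mature minus immature, of each of the 43 tested members in Sirpa-positive (horizontal) and Sirpa-negative cells (vertical), with standard errors as bars and a dashed line of equality. Most members sit in the lower left, Ccnd2 and Cdkn1a sit in the upper right, and Cdk1 and Ccnd3 sit near 0 on the vertical axis alone.

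Between the subsets at the same stage, few members differed. Among immature cells 1 member was lower in Sirpa-positive cells, Rrm2 (-0.92 ± 0.204, adjusted p = 0.0278), and 1 was higher, Ccnd2 (1.18 ± 0.242, adjusted p = 0.0205), against 11.6% of all genes called in either direction (4.4% lower, 7.22% higher in Sirpa-positive cells). The levels, given above, did not overlap for either gene. A total of 36 of 43 members were lower in Sirpa-positive immature cells by size, with a median of -0.34 where all genes had -0.11, and 25 of these did not overlap between the subsets, against 36.3% of all genes in that direction. The size of this shift depended on the array. Without Sirpa-positive immature array 3 the median was -0.13 (all genes -0.09), with 30 members lower. Without array 5 it was -0.56 (all genes -0.14), with 37 lower. With all arrays, all 8 licensing and helicase genes were among the 36, led by Cdc45 (-1.21 ± 0.322, adjusted p = 0.0543), which did not pass. Mcm3, counted among these 8, was at -0.0025 (adjusted p = 0.996) and kept its sign in 14 of 20 alternatives. Both calls were lost without Sirpa-positive immature array 5, or without either Sirpa-negative immature array, and 1 was lost without Sirpa-positive immature array 3.

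Among mature cells 2 members were lower in Sirpa-positive cells, Cdk1 (-1.88 ± 0.246, adjusted p = 0.00538) and Cdc25c (at least 1.41-fold lower, adjusted p = 0.0225), and Ccnd2 was higher (1.10 ± 0.242, adjusted p = 0.0467), against 5.48% of all genes called (2.1% lower, 3.38% higher). The second bright Cdk1 probe also passed here, at -1.60 ± 0.264 (adjusted p = 0.0167), and the dimmest did not, at -0.42 ± 0.230 (adjusted p = 0.452). Cenpe was next, at -1.04 ± 0.241 (adjusted p = 0.0558). None of the 13 replication members was called; 12 were lower in Sirpa-positive mature cells by size, from Rrm2 at -0.64 ± 0.204 (adjusted p = 0.155) and Cdc45 at -0.41 ± 0.322 (adjusted p = 0.652) to Pcna at -0.00 ± 0.235, with a median of -0.16 where all genes had -0.07. The mitosis members had a median of -0.50. Cdc25c was above background on only 1 of these 4 arrays, Sirpa-negative mature array 2, so its bound rests on levels at or near background. The Ccnd2 call was lost with slide row as a block (adjusted p = 0.0802) and with the set of title numbers, 1 to 4 against 5 to 8, as a block (adjusted p = 0.0501). The 3 calls became 1 without Sirpa-negative mature array 2, without Sirpa-negative mature array 8 or without Sirpa-positive mature array 6.

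Further cell cycle genes were listed by function, with earlier results of these data known, so they are no independent check. Most were lower in mature cells too, at smaller size, while the regulators among them, described in the next paragraph, went both ways. Of 169 such genes, 163 were tested. In mature Sirpa-positive cells 28 fell (16.6%) and 6 rose (3.55%), with a median of -0.69, against 2.53% and 4.36% of all genes. In mature Sirpa-negative cells 65 fell (38.5%) and 5 rose (2.96%), with a median of -0.80, against 7.25% and 9.2% of all genes. The same shares of all genes apply to the counts of the single lists. Of 47 genes of origins, forks and polymerases, 6 fell in Sirpa-positive and 25 in Sirpa-negative cells. Prim1, the primase subunit, was at -1.03 ± 0.226 and -1.57 ± 0.226, and Mcm10, a helicase activator, at -1.19 ± 0.195 and -1.32 ± 0.195. Of 52 mitosis genes, 15 and 22 fell, with the midzone kinesin Kif23 at -1.91 ± 0.236 and -1.48 ± 0.236 and the centromere histone Cenpa at -1.28 ± 0.225 and -1.40 ± 0.225. Of 15 genes of recombination and fork repair, 3 and 8 fell, among them Fanci and Brip1 of the Fanconi anaemia pathway in both subsets. Of 10 chromatin and tubulin genes of cycling cells, 1 and 3 fell. None of these lists had a riser in either subset.

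The regulators outside the members went both ways. Of 45 genes, 6 rose (13.3%) and 3 fell (6.67%) in Sirpa-positive cells, against 4.36% and 2.53% of all genes. In Sirpa-negative cells 5 rose (11.1%) and 7 fell (15.6%), against 9.2% and 7.25%. The share of risers there was near that of all genes. Cdkn2b, which encodes the CDK inhibitor p15, was -2.35 and -2.82 in Sirpa-positive immature and 1.60 and 1.95 in mature cells, and -3.10 and -3.69, then 2.30 and 1.97 in Sirpa-negative cells. Every mature array was far above every immature array, by 4.36 ± 0.293 (20.5-fold, adjusted p = 0.000914) and 5.53 ± 0.293 (46.2-fold, adjusted p = 0.00034). Mxd1, an antagonist of Myc, rose by 3.36 ± 0.347 and 3.77 ± 0.347, and the growth arrest gene Gadd45b by 3.18 ± 0.422 and 4.77 ± 0.422.

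On the falling side, Foxm1, the factor that drives mitotic genes, fell in mature cells of both subsets, at -1.10 ± 0.22 (adjusted p = 0.0292) and -1.26 ± 0.22 (adjusted p = 0.0103). Mycl, the Myc relative of conventional dendritic cells, was lower in Sirpa-positive than Sirpa-negative cells at both stages, at -2.88 ± 0.22 (adjusted p = 0.000277) in immature and -2.45 ± 0.22 (adjusted p = 0.00103) in mature cells. It also fell between immature and mature cells, at -1.21 ± 0.22 in Sirpa-positive and -1.63 ± 0.22 in Sirpa-negative cells. Myc itself was 0.94 and 0.91 in Sirpa-negative immature and -2.28 and -1.39 in Sirpa-negative mature cells, a difference of -2.76 ± 0.359 (adjusted p = 0.00342). In mature cells Myc was higher in Sirpa-positive cells, by 1.61 ± 0.359 (adjusted p = 0.0485).

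Several lists of markers of other cells moved with the same contrasts, and others did not. The 24 thymocyte and T cell genes, of which 21 to 24 were above background on each array, summed to 5903 and 5244% of the array's 75th percentile in Sirpa-positive immature and 7477 and 7852% in Sirpa-positive mature cells. They summed to 5410 and 4327% in Sirpa-negative immature and 11264 and 9292% in Sirpa-negative mature cells. Within each subset they were thus higher at the mature stage, where most members were lower. Between the mature subsets this did not hold: the sums were lower in Sirpa-positive cells, and so were 34 of 43 members by size. The 10 macrophage genes on the array summed to between 37364 and 60082% in Sirpa-positive and between 1138 and 1482% in Sirpa-negative cells, and were lower in mature than immature Sirpa-positive cells. The 7 B cell genes summed to 118 to 495% on immature and 228 to 810% on mature arrays, higher on the mature arrays of each subset. The 5 thymic epithelial genes summed to 819 and 1268% in Sirpa-positive immature, 390 and 449% in Sirpa-positive mature and 216 to 462% in Sirpa-negative cells. The 4 plasmacytoid genes summed to between 9731 and 13292% over all arrays and overlapped between the stages in both subsets. The 4 erythroid genes summed to at most 22.3%. The part of these transcripts in the members' differences was not tested.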

How the data were processed

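Total RNA, amplified and labelled with Cy3, was hybridised to 8 Agilent 1-colour arrays, 2 per group. The deposited scanner files hold spot intensity: the processed signal is background-subtracted by Agilent Feature Extraction, version 10.7.3.1 per the file headers (10.5 per the submitters' processing notes, which also name limma). The authors' deposited value table is taken as log2, with column medians of 5.99 to 6.01 and ranks that follow the median pixel signal; its normalization is not given in the sources used here, and it served as an alternative.

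Here log2 processed signal minus each array's 75th percentile was used. Control and outlier spots were left out, spots of a probe averaged, and probes kept when well above background on both arrays of a group. A gene was represented by its brightest kept probe, an unnamed probe by its accession (24148 tested). Accessions were named through RefSeq. A linear model over the 4 groups was fitted with limma 3.58.1 in R 4.3.3 and checked on simulated data. Slide row, title-number set, scaling, filter, probe choice, variance model and each array were varied.

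Members and gene lists were chosen with earlier results of these data known. Values on every array are given, within each role, for up to 3 members with the smallest p in either single maturation comparison, and also for Mki67, Top2a, Cdk1, Mcm2, E2f2, the D-type cyclins and the CDK inhibitors. Of each further list, up to 2 risen and 2 fallen genes with the smallest p in a comparison are named.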

Additional observations from a re-analysis of the deposited data

How the results depend on the processing

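The 22, 28 and 38 members called in Sirpa-positive, Sirpa-negative and pooled maturation kept their direction in all alternatives run (up to 20), and 2, 7 and 32 of them, respectively, kept their call in all. Without the filter on dim probes, the counts were 3 and 10 within subsets. The slide row as a block gave 8 in Sirpa-positive cells, and trended, robust variances gave 34. A fit on only the compared arrays gave 12 and 13. For the subset difference, the 2 calls in immature cells became 7 with normexp and quantile normalization, 0 without the filter and 1 on only the compared arrays. The 3 calls in mature cells became 6 with normexp and quantile normalization, 5 with the authors' deposited values, 5 with the mean of a gene's probes, 5 with trended, robust variances and 1 without the filter. The causes were not tested.

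Leaving out each array in turn gave 2 to 18 calls in Sirpa-positive and 9 to 24 in Sirpa-negative maturation, and 0 to 3 and 1 to 3 for the subset difference in immature and mature cells. A group left with 1 array was assumed to vary like the others. Among named members, signs turned only for those not called. Cdk1 in Sirpa-negative maturation was 0.0171 with normexp and quantile normalization, 0.00985 with quantile normalization alone, 0.0185 in the authors' deposited values, and between -0.24 and 0.22 with an array left out. Cdkn1b was -0.0177 in Sirpa-negative cells with arrays centred on their median; with an array left out it ran from -0.0369 to 0.22 there and from -0.0237 to 0.27 in Sirpa-positive cells. Ccnd1 in Sirpa-positive cells ran from -0.0106 to 0.70 with an array left out. Centring arrays on their median moved the median of all genes in Sirpa-negative maturation from -0.01 to -0.12.

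The titles number the arrays 1 to 8 without a repeat, so no number pairs 1 array with another. Numbers 1 to 4 and 5 to 8 each hold 1 array of every group, and the labels do not say what the sets are. With the set as a block, 29, 30 and 37 members were called in Sirpa-positive, Sirpa-negative and pooled maturation, and 3, 2 and 0 for the subset difference in immature cells, in mature cells and between the maturation effects. Probes near background limit Aurkb, Cdc25c and Tyms, and leave Ccne2, Cdk6 and Cenpf untested. An outlier test needs 4 arrays per group and was not possible with 2.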
